A study of Mus musculus with 4 samples.

Results

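The expression of 8 cardiac regulators and venous pole genes was compared between the dorsal part and the ventral part of the tracheoesophageal anlage in BALB/c mouse embryos at about E9.75. The genes were *Isl1*, *Nkx2-5*, *Nkx2-6*, *Shox2*, *Vsnl1*, *Mef2c*, *Myocd* and *Hopx*, chosen by name, and every probe set that the array's annotation assigns to them alone was taken, which gave 18 of the 45037 probe sets that are not controls. These genes are 8 of 18193 that the annotation names. The labels name no genetic change or treatment. The anlage is the foregut tube from which the esophagus and the respiratory organs later separate, and it was cut out between the posterior end of the pharynx and that of the lung bud swelling, then divided by hand under the microscope. Each sample holds whatever epithelium, mesenchyme and adjoining tissue stayed on the piece. There were 2 Affymetrix arrays for the dorsal part and 2 for the ventral part, called biological replicates in the labels. No source used here says if separate litters or pools were taken, so the p-values cover the spread between these arrays alone, which may be technical.

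The heart tube lies ventral to the foregut at this stage and is still growing. Cells are added to it from the second heart field, a progenitor population in the mesoderm next to the foregut, at an arterial and at a venous pole. *Isl1* encodes a LIM homeodomain factor of these progenitors, and *Nkx2-5* and *Nkx2-6* encode related homeodomain factors of heart precursors that are also known from pharyngeal endoderm. *Shox2* encodes a homeodomain factor of the sinus venosus and pacemaker region at the venous pole, and *Vsnl1* encodes visinin-like 1, a calcium sensor protein that is not a transcription factor and is expressed at that pole. *Mef2c* encodes a MADS-box factor of muscle differentiation that also acts in the second heart field and in endothelium. *Myocd* encodes myocardin, a coactivator of serum response factor in heart and smooth muscle, and *Hopx* encodes a small homeodomain protein that does not bind DNA and modulates serum response factor.

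Of the 18 probe sets, 16 were lower dorsally than ventrally when every probe set on the array was tested with limma and no filter (adjusted p under 0.05). Over all 45037 probe sets, 1.33% were called lower dorsally in that way. Each of the 18 had both dorsal values below both ventral values, which held for 18.6% of all probe sets. In the test used below, a probe set had to exceed the 40th percentile of its array (4.69 to 4.82 on the log2 scale) on at least 2 arrays. There, 17 of the 18 passed the filter and 16 were lower dorsally, against 2.46% of the 27520 probe sets tested, and 0 were higher dorsally by limma at an adjusted or at an unadjusted p under 0.05, against 4.92% of all tested at an adjusted p under 0.05. Passing was not neutral for *Vsnl1* 1420955_at, *Myocd* 1425808_a_at and *Hopx* 1451776_s_at, which lay under that percentile on both dorsal arrays and passed through the ventral arrays alone. With 2 arrays per part, the smallest two-sided p of an exact permutation test is 0.333.

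**Figure D1:**
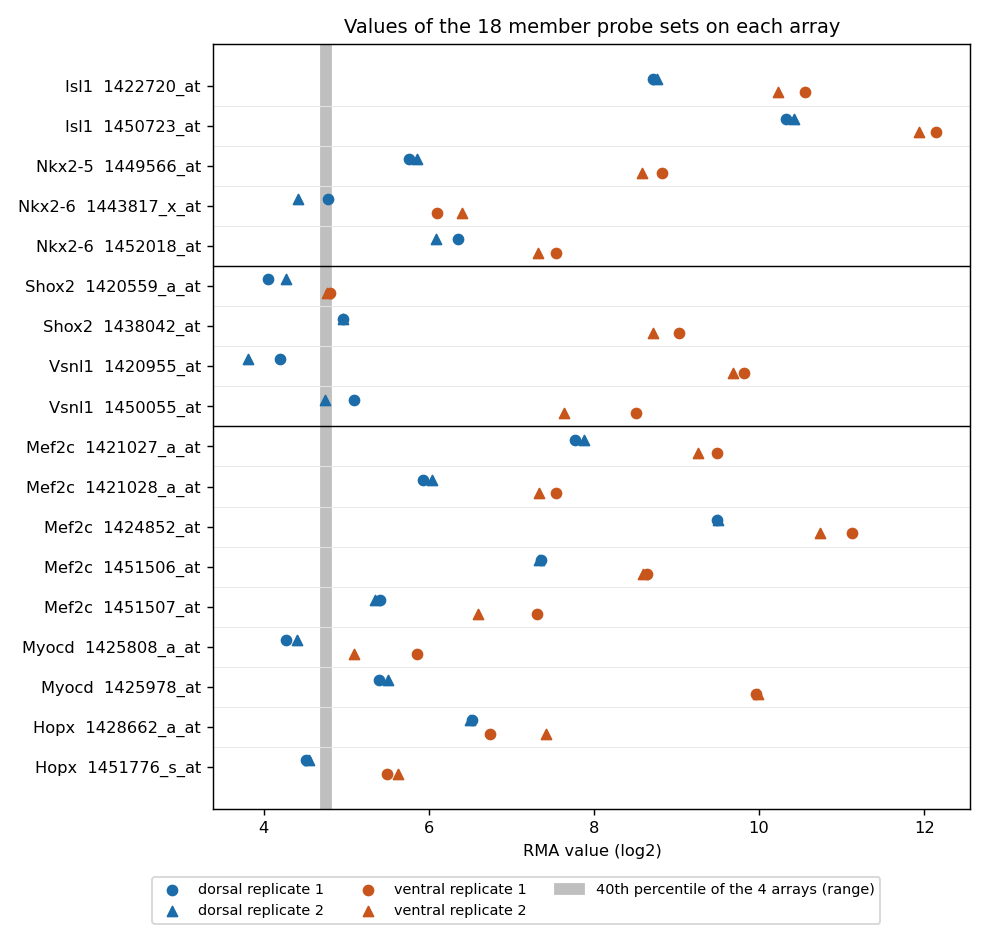
RMA values (log2, horizontal axis) of the 18 probe sets of the 8 genes, with 1 point per array (circles for replicate 1, triangles for replicate 2), dorsal above ventral in each row and lines between second heart field genes, venous pole genes and muscle regulators. In each row both dorsal points lie left of both ventral points, and the grey band marks the 40th percentiles of the arrays, 4.69 to 4.82.

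Heart muscle markers moved in the same direction as the 8 genes. Of 14 tested, 12 were lower dorsally and the other 2 did not pass, and of the 16 measured 11 were lower dorsally without the filter, against 2.02% of all 18193 genes by the probe set of highest mean. *Myh6*, an atrial myosin gene at later stages, had 3.87 and 3.93 dorsally, under the 40th percentile, and 10.07 and 10.05 ventrally, a difference of -6.16, or -5.33 with the dorsal values set to the percentile. *Tnnt2*, cardiac troponin T, differed by -5.34 and *Myl4*, an atrial myosin light chain, by -5.03. These are values of the probe set of highest mean. With all probe sets of a gene averaged, the differences were smaller, -3.14 for *Myh6*, -3.88 for *Tnnt2* and -2.57 for *Myl4*. *Myl2*, of ventricular muscle, and *Nppa*, of working chamber muscle, lay below the 40th percentile of all 4 arrays. The summed level of the list was 2427 to 2523 dorsally and 16239 to 20854 ventrally, and the part of heart muscle cells in the values of the 8 genes was not tested. In such pieces, fewer cells of a type and less RNA per cell cannot be told apart.

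The deposited values ran from 2.36 to 15.02. Between replicates, a probe set changed by a median of 0.09 dorsally and 0.27 ventrally, and ventral replicate 2 had an upper quartile of 7.75, below the 8.02 of ventral replicate 1. Over all tested probe sets the median difference was 0.08, dorsal minus ventral, with 1354 probe sets higher and 677 lower dorsally. These counts were 972 and 744 after quantile normalization once more, 474 and 390 without dorsal replicate 1, 442 and 392 without dorsal replicate 2, and 7601 and 2413 without ventral replicate 1. The 24 poly-A control probe sets, which read RNAs spiked in ahead of the labelling, were on average 2.19 (dorsal) and 1.83 (ventral) higher in replicate 2 than in replicate 1. Markers of foregut epithelium were measured in both parts. *Foxa2*, a forkhead factor of endoderm, lay at 8.98 and 8.95 dorsally and 9.53 and 9.12 ventrally. *Cdh1*, of the same list, lay at 8.19 and 8.06 dorsally and 8.76 and 8.55 ventrally. *Nkx2-1*, which marks the respiratory epithelium, lay at 5.10 and 5.03 dorsally and 5.09 and 5.25 ventrally, below the median of each array.

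*Isl1* was lower in the dorsal part by the same amount on both of its probe sets. On 1450723_at it stood at 10.33 and 10.42 dorsally and 12.14 and 11.93 ventrally. The lowest ventral value thus lay well above the highest dorsal one, and dorsally the gene still lay at the 91.5th and 92nd percentile of its arrays. The log2 difference was -1.66 (95% interval -2.03 to -1.30, standard error 0.17, n = 2 for each part, adjusted p = 0.000138 from limma), or 3.17-fold lower dorsally. The other probe set, 1422720_at, had 8.72 and 8.76 dorsally and 10.56 and 10.23 ventrally, again a difference of -1.66 (adjusted p = 0.000200 from limma). Motor and cranial neurons also use *Isl1*. Of 7 tested neuronal marker genes, 4 were higher dorsally (3 without the filter) and 3 did not pass the test. Over all 13138 tested genes, by the probe set of highest mean, 3.64% were higher dorsally. The summed level of the neuronal list on the linear scale was 667 to 688 dorsally and 399 to 403 ventrally. *Neurog2* and *Phox2a*, of the same list, were under the filter. Of the 4, *Elavl4* did not pass after quantile normalization once more (0.91) or with dorsal replicate 1 (1.01) or 2 (0.85) left out, nor *Tubb3* with dorsal replicate 2 (0.996) or ventral replicate 2 (1.01) left out. The part of neurons in the *Isl1* values was not tested.

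*Nkx2-5*, represented by 1 probe set (1449566_at), measured 5.76 and 5.86 dorsally and 8.83 and 8.59 ventrally. These lay at the 53.8th and 54.9th percentile of the dorsal arrays and the 81.6th and 81.9th of the ventral arrays. The log2 difference was -2.90 (95% interval -3.27 to -2.52, standard error 0.17, adjusted p = 2.86e-06 from limma), 7.45-fold lower dorsally. Its interval lies apart from those of *Isl1* and *Nkx2-6*, although a test between probe sets of different genes was not made.

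*Nkx2-6*, the closest relative of *Nkx2-5* among these genes, had a smaller difference. On 1452018_at its values were 6.35 and 6.09 dorsally and 7.54 and 7.32 ventrally, which is a change of -1.21 in log2 (95% interval -1.60 to -0.82, adjusted p = 0.00182 from limma). On 1443817_x_at they were 4.78 and 4.42 dorsally and 6.10 and 6.41 ventrally, a difference of -1.66 (adjusted p = 0.000379 from limma). With the dorsal value under the 40th percentile set to that percentile, this second difference was -1.50. The suffix _x marks probes that may also bind transcripts of other genes, so the level on this probe set is less certain. Among 4 tested markers of pharyngeal endoderm and pouches, *Ripply3*, a repressor that acts with T-box factors, was lower dorsally (-0.91, adjusted p = 0.00769 from limma), and *Pax9*, *Hoxa3* and *Foxn1* did not pass (-0.28, 0.17 and -0.08). The share over all 13138 tested genes was 3.17% lower dorsally. With dorsal replicate 1 left out *Ripply3* failed the test (-1.01), as it did with dorsal replicate 2 left out (-0.82). The summed level of this list was 527 to 596 dorsally and 748 to 824 ventrally, and its part in the values of *Nkx2-5* and *Nkx2-6* was not tested.

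The venous pole genes had some of the largest differences among the 8. *Shox2* on 1438042_at had 4.96 on each dorsal array, close above the 40th percentile, and 9.03 and 8.71 ventrally. The log2 difference was -3.91 (95% interval -4.29 to -3.52, standard error 0.17, adjusted p = 6.26e-07 from limma), which ranked as number 19 from the ventral end among the 27520 differences. The other *Shox2* probe set, 1420559_a_at, showed little of this. Its suffix _a marks probes for several transcripts of the gene. It had 4.05 and 4.27 dorsally and 4.81 and 4.77 ventrally, and it was not tested because 3 of its 4 values lay under the 40th percentile. Without the filter its difference of -0.63 had an adjusted p of 0.0711 from limma. With low values set to the percentile, only -0.08 was left.

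*Vsnl1* was near the low end of the scale dorsally and bright ventrally. On 1420955_at it had values of 4.20 and 3.81 dorsally, at the 31st and 22.8th percentile, and 9.82 and 9.68 ventrally, at the 88.5th and 89.3rd percentile. The log2 difference of -5.75 (95% interval -6.15 to -5.34, standard error 0.18, adjusted p = 1.03e-07 from limma) was number 2 from the ventral end among all tested probe sets. Without the filter this difference had an adjusted p of 4.09e-06 from limma. As both dorsal values lay under the 40th percentile, the size of the difference rests on low values. Set against those percentiles it was -5.02, or 32.5-fold lower dorsally. On 1450055_at the values were 5.10 and 4.74 dorsally and 8.51 and 7.64 ventrally, a difference of -3.16 (95% interval -3.74 to -2.58, adjusted p = 3.76e-05 from limma). The ventral arrays differed by 0.88 on this probe set, the widest gap between replicates among the 18.

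*Mef2c* had 5 probe sets, and they gave closely similar differences. That of highest mean, 1424852_at, measured 9.49 and 9.51 dorsally and 11.12 and 10.73 ventrally. Its log2 difference was -1.43 (95% interval -1.83 to -1.03, standard error 0.18, adjusted p = 0.000727 from limma), 2.69-fold lower dorsally. Over the 5 probe sets the difference ran from -1.57 to -1.27, with adjusted p from 0.000258 to 0.00156 from limma. The gene was measured in the dorsal part as well, up to the 86.7th percentile. Of 8 endothelial markers, which would report another tissue that uses *Mef2c*, 0 differed by limma at an adjusted p under 0.05 and 2 were lower dorsally at an unadjusted p under 0.05. Over all 27520 tested probe sets, 4921 had an unadjusted p under 0.05 by limma, in either direction. The summed level of the endothelial markers was 1983 to 2048 dorsally and 2035 to 2545 ventrally, and their part in the *Mef2c* values was not tested.

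*Myocd* had a large difference on 1 of its probe sets. On 1425978_at it had 5.40 and 5.51 dorsally and 9.97 and 9.98 ventrally, values that were close within each part and far apart between them. The log2 difference was -4.52 (95% interval -4.87 to -4.16, standard error 0.16, adjusted p = 1.44e-07 from limma), 22.9-fold lower dorsally and number 14 from the ventral end. On 1425808_a_at the values were 4.27 and 4.40 dorsally, both under the 40th percentile, and 5.86 and 5.10 ventrally. There the difference was -1.15 (adjusted p = 0.0126 from limma, or 0.0365 without the filter). With the dorsal values set to the percentile it was -0.75. It did not pass after quantile normalization once more (-1.10, adjusted p = 0.120 from limma). Over its alternatives the adjusted p from limma ran from 3.66e-08 to 0.120. The low end came from the replicate block, where the named probe sets all had the same standard error. Myocardin also acts in smooth muscle. Of 8 smooth muscle markers, *Tagln* (transgelin) was higher dorsally (2.21), *Synpo2* (an actin-binding protein) and *Cnn1* (calponin) were lower dorsally (-2.02 and -0.73), and 5 did not pass. The shares over all 13138 tested genes were 3.64% higher and 3.17% lower dorsally. With its probe sets averaged, *Synpo2* differed by -0.84. *Cnn1* failed the test without the filter (-0.73) and with either dorsal array left out (-0.76 and -0.70). The summed level of the list was 5895 to 5952 dorsally and 6199 to 6891 ventrally, and its part in the *Myocd* values was not tested.

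By the probe set of highest mean, *Hopx* had the smallest difference of the 8 genes. On 1428662_a_at its values were 6.52 and 6.50 dorsally and 6.74 and 7.42 ventrally. The ventral arrays thus differed by 0.68, about as much as the parts did, and the log2 difference of -0.57 (95% interval -1.05 to -0.09, standard error 0.22) did not pass the test (adjusted p = 0.186 from limma). On 1451776_s_at, whose suffix marks probes shared by several transcripts, the values were 4.52 and 4.55 dorsally, under the 40th percentile, and 5.50 and 5.63 ventrally. This difference of -1.03 passed (adjusted p = 0.00284 from limma, or 0.00678 without the filter). With the dorsal values set to the percentile it was -0.84. Without ventral replicate 1 the difference on 1428662_a_at was -0.91 and passed, and without ventral replicate 2 it was -0.23 and did not, so ventral replicate 2 carries most of it.

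**Figure D2:**
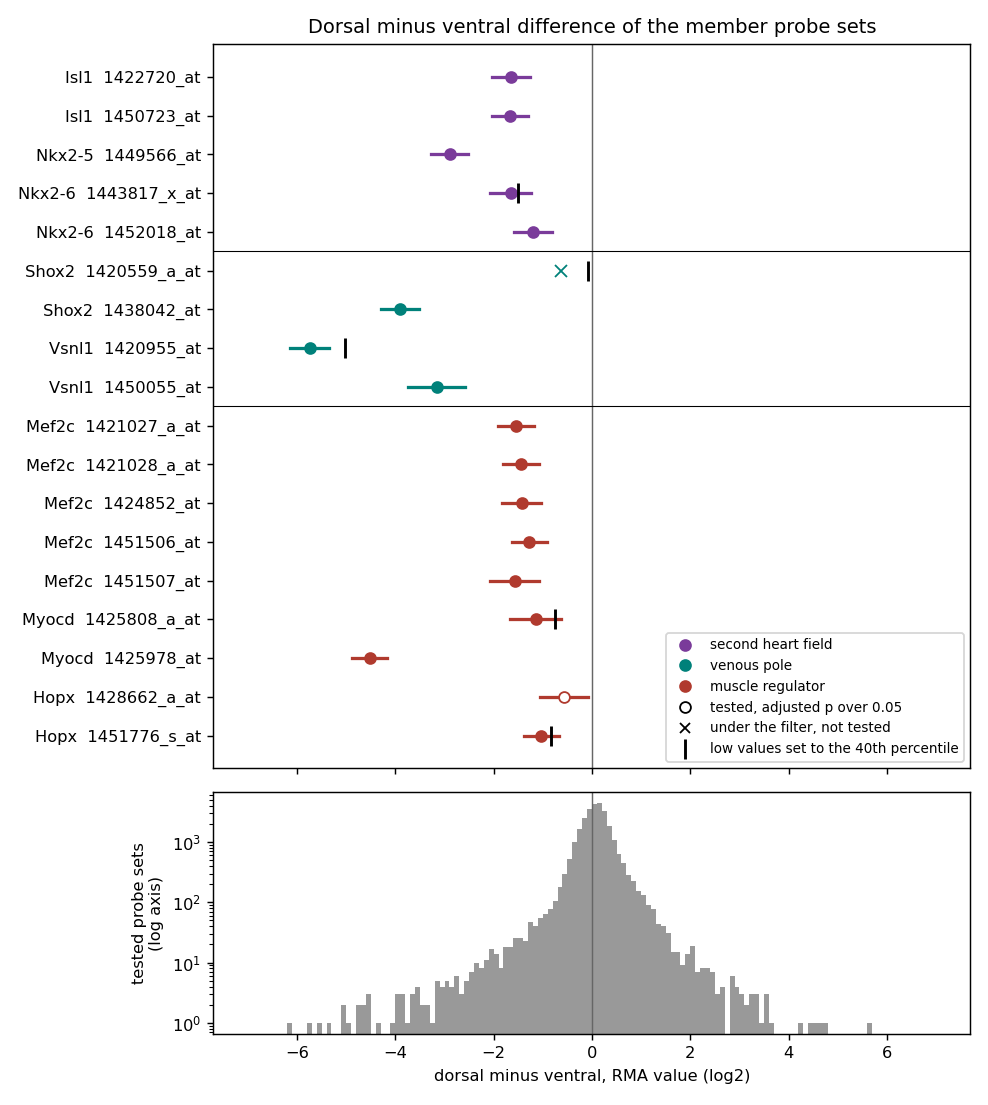
Upper panel, dorsal minus ventral difference (log2, horizontal axis) of each probe set with its 95% interval from limma, coloured by group, and lower panel, the differences of all 27520 tested probe sets on the same axis with counts on a log axis. The differences run from -5.75 for *Vsnl1* to -0.57 for *Hopx*, and black ticks give the value with low values set to the 40th percentile.

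Probe sets of the same gene differed in how far apart they placed the parts. The spread between the differences was 0.01 for *Isl1*, 0.30 for *Mef2c*, 0.45 for *Nkx2-6* and 0.46 for *Hopx*. It was 2.59 for *Vsnl1*, 3.28 for *Shox2* and 3.37 for *Myocd*. In each of the 7 genes with several probe sets, all pointed the same way. By group, the median difference over all probe sets was -1.66 for the 5 of the second heart field genes, -3.53 for the 4 of the venous pole genes and -1.43 for the 9 of the muscle regulators, beside 0.08 over all tested probe sets. As *Mef2c* gives 5 of the 9, the last median is mostly that of *Mef2c*.

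Whether taken between the arrays numbered 1 or between those numbered 2, each of the 18 differences was negative. The median of the 18 was -1.68 within number 1 and -1.33 within number 2, beside 0.01 and 0.18 over all tested probe sets. *Nkx2-5* had -3.06 and -2.73, *Shox2* 1438042_at had -4.07 and -3.75, and *Myocd* 1425978_at had -4.56 and -4.47 within numbers 1 and 2. The numbers mattered most, in proportion, for *Hopx* 1428662_a_at (-0.22 and -0.92) and *Myocd* 1425808_a_at (-1.59 and -0.70). Ventral replicate 1 exceeded ventral replicate 2 on 14 of the 18 probe sets and on 55.8% of all probe sets.

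**Figure D3:**
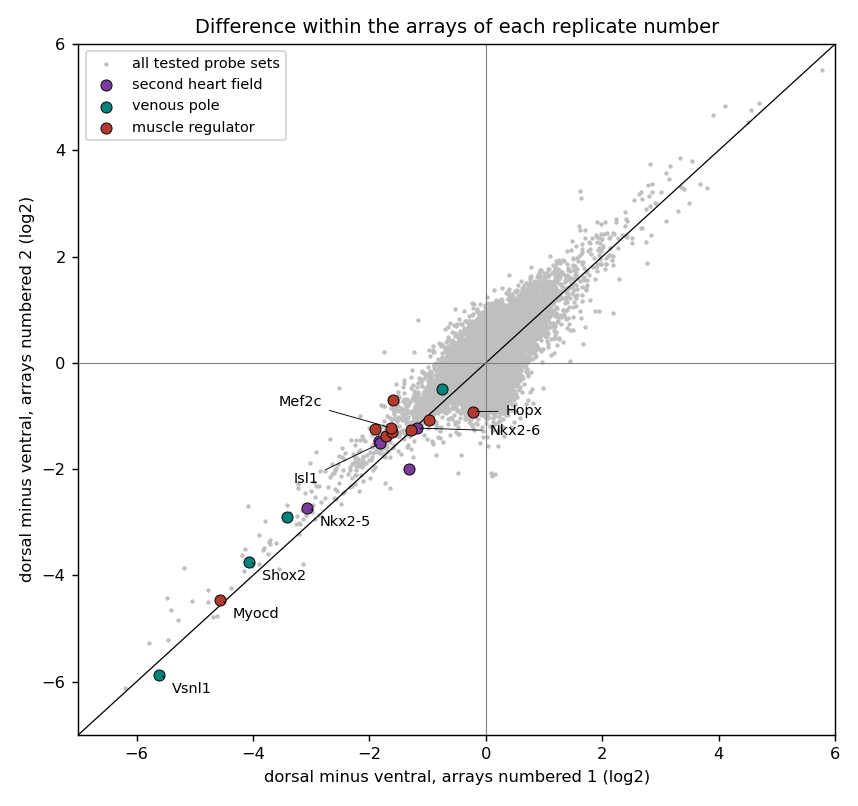
Dorsal minus ventral difference (log2) for the replicate 1 arrays (horizontal axis) and for the replicate 2 arrays (vertical axis), with grey points for the 27520 tested probe sets, coloured points for the 18 probe sets and names at the probe set of highest mean of each gene. The 18 points lie below 0 on both axes, and *Hopx* lies farthest below the diagonal in proportion, at -0.22 and -0.92.

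The promoters of the genes whose values fell together dorsally were read for binding motifs of cardiac factors, since GATA, T-box, NKX2, MEF2 and serum response factors act together in heart muscle. Promoter windows of 250 bases before and 50 bases from the start on were found for 6 of the 8 genes, 10 windows in all, among the 32851 windows of mouse genes from RefSeq, build GRCm38.p6. Windows of *Isl1* (chr13:116309639-116309938, minus strand), *Nkx2-5* (chr17:26841516-26841815, minus strand), *Shox2* (chr3:66981722-66982021, minus strand) and *Hopx* (chr5:77115074-77115373, minus strand) are shown, the first 3 because their genes have 1 window and a clear difference, and the upstream *Hopx* window because it holds the CArG box. Capitals mark the motif matches.
Isl1: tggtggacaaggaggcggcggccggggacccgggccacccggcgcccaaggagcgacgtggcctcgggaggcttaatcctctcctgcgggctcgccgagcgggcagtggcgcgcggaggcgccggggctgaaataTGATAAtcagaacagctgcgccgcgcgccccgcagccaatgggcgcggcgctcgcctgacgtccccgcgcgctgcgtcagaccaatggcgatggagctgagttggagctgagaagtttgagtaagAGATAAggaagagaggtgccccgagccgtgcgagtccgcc
Nkx2-5: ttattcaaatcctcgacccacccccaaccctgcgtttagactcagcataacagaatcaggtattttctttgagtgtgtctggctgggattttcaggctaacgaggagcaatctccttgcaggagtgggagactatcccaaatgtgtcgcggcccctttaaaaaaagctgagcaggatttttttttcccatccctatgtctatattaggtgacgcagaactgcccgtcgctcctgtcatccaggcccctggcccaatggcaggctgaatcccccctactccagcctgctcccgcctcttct
Shox2: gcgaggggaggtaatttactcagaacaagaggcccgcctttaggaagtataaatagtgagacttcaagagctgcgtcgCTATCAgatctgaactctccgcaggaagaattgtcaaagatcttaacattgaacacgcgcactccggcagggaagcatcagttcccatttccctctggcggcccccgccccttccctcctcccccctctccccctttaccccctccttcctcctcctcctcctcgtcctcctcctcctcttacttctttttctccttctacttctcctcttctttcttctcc
Hopx: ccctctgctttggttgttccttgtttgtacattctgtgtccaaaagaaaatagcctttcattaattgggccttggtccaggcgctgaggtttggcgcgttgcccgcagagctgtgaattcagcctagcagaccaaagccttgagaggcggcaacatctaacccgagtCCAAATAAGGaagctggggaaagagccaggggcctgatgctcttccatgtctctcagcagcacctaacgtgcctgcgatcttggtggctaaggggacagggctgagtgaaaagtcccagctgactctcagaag

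Both strands were searched, and no matches overlapped in these windows. A GATA element (GATAA or GATAG after an A or a T) occurred in 2 of the 10 windows, beside 29.8% of all windows. The *Isl1* window held TGATAA from position -115 and AGATAA from position 11, counted from 1 at the start with no position 0, and the *Shox2* window held CTATCA, the reverse complement of TGATAG, from position -172. The CArG box, bound by serum response factor, occurred in 1 of the 10 windows, beside 1.63% of all windows, as CCAAATAAGG from position -83 of the upstream *Hopx* window. An NKX2 element (TNAAGTG) occurred in 1 of the 10 windows, the other window of *Hopx*, beside 11.5% of all. A T-box element (AGGTGTG) occurred in 1, a window of *Mef2c*, beside 5.84% of all. The MEF2 site occurred in 0 of the 10 windows and in 3.19% of all. The *Nkx2-5* window held none of these letters. A match describes the letters of the window alone.

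Other genes of the second heart field and of cardiac progenitors were measured for comparison. Of 13 tested, 4 were higher dorsally, 8 were lower dorsally and *Foxh1* did not pass (-0.35), while *Fgf8* and *Fgf10* were under the filter. Over all 13138 tested genes, taken by the probe set of highest mean, 3.64% were higher and 3.17% lower dorsally. The lower ones included *Tbx20*, a T-box gene of heart muscle (-4.68, adjusted p = 1.44e-07 from limma), the zinc finger genes *Gata5* (-3.64) and *Gata4* (-3.05), and *Bmp4*, a BMP ligand of the outflow region and foregut mesenchyme (-2.53). *Tbx20* had 5.56 and 5.34 dorsally and 10.18 and 10.10 ventrally. With all probe sets of a gene averaged, *Tbx20* differed by -2.70, *Gata5* by -3.21 and *Gata4* by -2.12. The higher ones were *Tbx1*, a T-box gene of the pharynx and anterior second heart field (1.45, adjusted p = 0.000337 from limma), *Foxc2* (1.02), *Eya1* (0.96) and *Foxc1* (0.92). *Tbx1* had 7.94 and 8.04 dorsally and 6.46 and 6.62 ventrally. The median of the list was -0.98 over its 15 measured genes, beside 0.02 over all genes.

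Other genes of the venous pole were divided. Of 10 tested, 3 were higher dorsally, 2 were lower dorsally and 5 did not pass, beside 3.64% higher and 3.17% lower of all 13138 tested genes. *Wnt2*, a Wnt ligand of lung mesenchyme and the posterior second heart field, had 7.92 on each dorsal array and 10.75 and 10.54 ventrally, so that its difference was -2.73 (adjusted p = 3.77e-06 from limma). *Tbx5*, a T-box gene of the inflow region and lung mesenchyme, differed by -1.34 (adjusted p = 0.000665 from limma). *Hoxb1*, a Hox gene of the posterior second heart field, had 10.43 and 10.46 dorsally and 8.77 and 8.60 ventrally, a difference of 1.76 (adjusted p = 8.19e-05 from limma), and *Aldh1a2*, which makes retinoic acid, and *Nr2f1*, an orphan nuclear receptor gene, differed by 0.996 and 0.90. *Aldh1a2* did not pass without dorsal replicate 2 (0.97). *Tbx18* and *Tbx3*, which encode T-box factors of the sinus venosus, did not pass (-0.18 and -0.52). The median of the list was -0.33, beside 0.02 over all genes. The proepicardium lies beside the venous pole, and of 6 tested genes of proepicardium and mesothelium 4 were higher dorsally, among them *Bnc1* (3.60), *Wt1* (2.96) and *Upk3b* (2.56), with a summed level of 1648 to 1917 dorsally and 935 to 1459 ventrally. Of the same list, *Tcf21* pointed the other way (-0.71) and did not pass (adjusted p = 0.123 from limma). Its ventral values of 10.26 and 9.54 were the highest of the list, so the ventral sums rest largely on it. *Wt1* lay under the 40th percentile on both ventral arrays, and its difference was 2.20 with these values set to the percentile. The part of these cells in the values of *Shox2* and *Vsnl1* was not tested.

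Among 12 other tested regulators of muscle differentiation, 1 was higher dorsally, 2 were lower dorsally and 9 did not pass. Of all 13138 tested genes, 3.64% were higher and 3.17% lower dorsally. *Ankrd1*, a cardiac ankyrin repeat gene, had 4.63 on each dorsal array, under the 40th percentile, and 8.73 and 8.33 ventrally. Its difference was -3.90 (adjusted p = 7.23e-07 from limma), or -3.80 with the dorsal values set to the percentile. It passed the filter through the ventral arrays alone, and without the filter its adjusted p was 1.67e-05 from limma. *Zfpm2*, a cofactor of GATA factors, differed by -3.11 and *Hey2*, a transcriptional repressor of the Notch pathway, by 1.71 (adjusted p = 2.21e-06 and 8.69e-05 from limma). Both ventral values of *Hey2* (3.55 and 3.67) lay under the 40th percentile, and with these set to the percentile its difference was 0.56. The relatives of *Mef2c* did not pass, with -0.34 for *Mef2a*, -0.24 for *Mef2b* and -0.36 for *Mef2d*, and neither did *Srf*, the partner of myocardin (0.07), or the myocardin-related *Mrtfa* and *Mrtfb* (0.32 and 0.24). Whether *Mef2c* and *Myocd* differ from these relatives was not tested. The median over the 13 measured genes was -0.18, beside 0.02 over all genes.

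**Figure D4:**
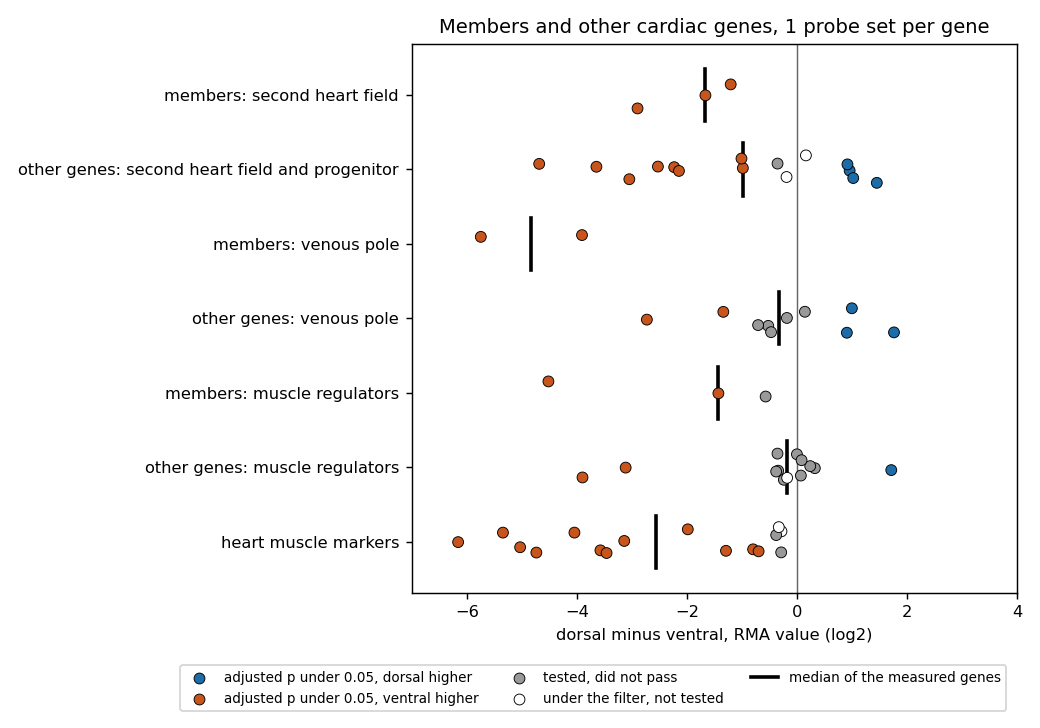
Dorsal minus ventral difference (log2, horizontal axis) of the 8 genes and of other genes of the same groups, by the probe set of highest mean, with 1 point per gene coloured by the limma call and each group's median over measured genes as a bar. The medians of the other genes are -0.98, -0.33 and -0.18, and that of the heart muscle markers is -2.56.

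Finally, the 3 genes with the nearest profile over the 4 arrays were found for each of the 8 genes among the 13138 tested genes, as the Euclidean distance between log2 values centred on their mean. Centring takes out the level, so that with 4 arrays this describes only the size and direction of the differences between arrays. For *Vsnl1* they were *Tnnt2* (distance 0.48), *Myh6* (0.53) and the myosin chaperone gene *Unc45b* (0.77). For *Myocd* they were *Rspo2*, an R-spondin (0.22), *Tbx20* and the calcium channel subunit gene *Cacna2d2* (each 0.30). For *Shox2* they were *Ccdc141* (0.06), *Ankrd1* (0.06) and *Gbp2* (0.14), and for *Nkx2-5* *Fbxo32* (0.10), *Prnp* (0.12) and *Sphkap* (0.16). Those of *Isl1* were *Bves*, a membrane protein gene of muscle (0.08), *Corin*, a protease that processes atrial natriuretic peptide (0.09), and *Pcdh17* (0.10). Those of *Nkx2-6* were *Hspb1* (0.04), *Ackr3* (0.08) and *Angptl6* (0.09). Those of *Mef2c* were *Msx2* (0.05), *Angpt1* (0.08) and *Smad6* (0.08). The profile of *Hopx*, set by 1 high ventral array, lay nearest to *Appbp2os* (0.06), *Runx1* (0.08) and *Faim2* (0.09).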

How the data were processed

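Gene expression in pieces of the tracheoesophageal anlage was measured on 4 Affymetrix arrays from 100 ng of total RNA each. The authors summarised the scans by RMA, per the submitters' processing notes, and deposited values that were read here as log2 from their range. No version of RMA was found in these notes. Genes were named from GEO's platform annotation, and 34741 of the 34945 probe sets with 1 symbol were found by identifier in RefSeq (GRCm38.p6), with 0 symbols changed. Differences, dorsal minus ventral, were tested two-sided in limma 3.58.1 (lmFit, eBayes; R 4.3.3) over the 27520 probe sets above the 40th percentile of their array on at least 2 arrays, with Benjamini-Hochberg adjustment and a threshold of 0.05. No detection calls were used, and with so few arrays their number limits precision. Genes, lists and tests were chosen with earlier results of these data known. Named genes are all probe sets of the 8 genes, up to 4 called genes with the largest differences per pathway list, up to 3 per cell type list, and the 3 nearest profiles. Other list genes were named after their values were seen. The lists tried were second heart field, venous pole and muscle regulators, and markers of heart, smooth and skeletal muscle, proepicardium, endothelium, neural crest, neurons, foregut and pharyngeal endoderm, liver and blood. Alternatives changed the filter, scaling, probe sets, variance model, replicate block, threshold and arrays. Lists were summarised by counts, medians and, on the linear scale, sums of values.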

Additional observations from a re-analysis of the deposited data

How the results depend on the processing

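In place of 16 probe sets lower dorsally there were 15 to 17 under no filter, equal array medians, quantile normalization once more, a trend, robust eBayes, the replicate block and thresholds of 0.01 or 0.10, and none was higher dorsally under any alternative. With fewer probe sets tested, 13 of 14 were lower at a 60th percentile filter, 11 of 11 without probe sets ending in _x_at, _s_at or _a_at, 7 of 8 with the probe set of highest mean per gene and 8 of 8 with probe sets averaged per gene. Without 1 array the count was 13 to 16. Those without a ventral array tested 14, as the filter then removed 3 more.

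Of the 27520 tested probe sets, 1354 were higher and 677 lower dorsally. With 1 probe set per gene there were 629 higher and 538 lower of 13138 tested, and with the mean per gene 440 and 407 of 12380. At a threshold of 0.01 there were 662 and 429 of 27520. Leaving out 1 array gave 442 to 7601 higher and 390 to 2413 lower, with the spread then taken from the other part alone.

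The labels share replicate numbers between the parts without saying that a number marks a litter. The deviations of dorsal replicate 1 and ventral replicate 1 from their parts correlated at 0.19 over probe sets. With the replicate block 2175 probe sets were higher and 1057 lower, and *Hopx* 1428662_a_at passed (adjusted p = 0.0232 from limma). In that fit the named probe sets all had the same standard error, 0.187, so the spread of each one did not count. In the main fit that of *Hopx* 1428662_a_at was 0.217. *Hopx* also passed with the mean of both of its probe sets (-0.80). No difference of the 8 genes changed sign under an alternative, nor did that of a gene picked from a list for the size of its difference. Other list genes and other nearest profiles were not carried through all alternatives. Without detection calls, values under the 40th percentile limit the differences of *Vsnl1*, *Shox2*, *Myocd* and *Hopx* as given above.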

Other observations

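Genes of other tissues near the foregut differed between the parts as well. Over all 13138 tested genes, by the probe set of highest mean, 3.64% were higher and 3.17% lower dorsally. Of 6 tested neural crest genes, 5 were higher dorsally, among them *Ret*, a receptor of enteric neural crest (4.79), *Tfap2b* (2.82) and *Sox10* (2.05), and *Ednrb* was lower dorsally (-1.37). With probe sets averaged per gene, *Ret* differed by 2.60, *Tfap2b* by 3.07 and *Sox10* by 0.88. Of 4 tested hepatic genes, *Afp*, alpha-fetoprotein (-3.50), *Ttr*, transthyretin (-2.08), and *Hhex*, a homeobox gene (-1.10), were lower dorsally. With its probe sets averaged, *Afp* differed by -2.09. Of 13 foregut epithelial genes, *Shh*, a hedgehog ligand (-2.66), and *Grhl2* (-0.77) were lower dorsally and 11 did not pass. Averaged in the same way, *Shh* differed by -1.90. *Grhl2* did not pass with its probe sets averaged (-0.24) or with dorsal replicate 1 (-0.81) or 2 (-0.73) left out. Of 4 tested blood genes, *Alas2* (1.19) and the globin gene *Hba-x* (1.04) were higher dorsally. *Hba-x* did not pass without the filter (1.04), after quantile normalization once more (0.92), or with dorsal replicate 1 (0.92) or ventral replicate 2 (0.64) left out. Of 7 measured skeletal muscle genes, 6 were under the filter and *Pax3* did not pass (0.63). In the neuronal list, *Mnx1* (2.51), *Tubb3* (1.17), *Elavl4* (0.93) and *Stmn2* (0.60) were the 4 genes higher dorsally. *Stmn2* did not pass without the filter, and *Mnx1*, under the 40th percentile on both ventral arrays, differed by 1.61 with those values set to the percentile.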
